A study of Rattus norvegicus with 62 samples.

Results

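Acetaminophen (APAP) is an analgesic that injures the liver in overdose, and here it was given as the initiator in a rat study of liver carcinogenesis in stages. The data described are the 8 liver arrays taken at partial hepatectomy (5w) from rats given APAP and then phenobarbital (5w APAP/PB, 4 arrays) and from rats given the methylcellulose vehicle and then phenobarbital (5w MC/PB, 4 arrays), out of 62 arrays in all. The members were chosen by their labels alone, and all genes measured were compared.

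The rats were males of Crj:CD(SD)IGS, a stock of Sprague-Dawley origin that is bred without inbreeding, and the labels give no age. APAP was given at 1000 mg/kg. Treatment with an initiator lasted 1 or 2 weeks, and a withdrawal of 2 weeks followed. Both groups then drank phenobarbital, a liver tumour promoter, at 500 ppm, and the hepatectomy came 1 week after it began, so a difference between them is one of initiator under phenobarbital. The tissue removed was the 5w sample, and the same animals gave a 10w sample at the end. The other groups used for comparison at 5w were MC/water (4 arrays, neither initiator nor phenobarbital), diethylnitrosamine at 3 mg/kg (DEN3/PB, 5 arrays) or 30 mg/kg (DEN30/PB, 4 arrays), thioacetamide at 45 mg/kg (TAA/PB, 5 arrays) and methapyrilene at 100 mg/kg (MP/PB, 5 arrays), each initiator being followed by phenobarbital.

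Most of a dose of APAP is glucuronidated or sulfated in hepatocytes. A part is oxidized by cytochromes P450, mainly CYP2E1, to a reactive quinone imine that glutathione captures. When glutathione runs out, the quinone imine binds proteins, hepatocytes around the central vein die, the NRF2 transcription factor induces antioxidant enzymes, and the surviving cells divide. The 5w comparison addresses what remained of this in liver expression after the withdrawal, and how far it carried on to 10w.

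The values are Affymetrix MAS5 signals, in arbitrary linear units. The 8 arrays had median signals between 103 and 117, and the signal reached 100 in 50.6% to 53.3% of probe sets. Within each group the log2 values of all pairs of arrays correlated at 0.970 to 0.979 across genes. Arrays of every group fell on either side of the first component of the within-group residuals, which held 11.8% of that variation. This gave a set 1 of 30 arrays and a set 2 of 32. Replicates 1 and 3 of every group were in set 1, and replicates 2 and 4 in set 2. The sets were read from the data and are not a labelled batch. Hepatocyte genes were abundant (Alb 43190 to 82820 with APAP and 45140 to 63060 in MC/PB), and the pancreatic genes Prss1, Amy2a3 and Cpa1 were below 100 on all 8 arrays. Abcc3, a transporter that phenobarbital induces, had signals of 519 to 1667 on the 8 arrays against 21.8 to 58.8 in MC/water.

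No gene differed between 5w APAP/PB and 5w MC/PB at an adjusted p of 0.05. Of 10491 genes tested with limma, 0 (0%) passed, and the smallest adjusted p was 0.113. At an unadjusted p under 0.05 there were 754 genes (7.19%), 377 higher (3.59%) and 377 lower (3.59%) with APAP. The signals of the 4 APAP livers lay wholly above those of the 4 controls in 175 genes (1.67%) and wholly below them in 193 (1.84%), 368 in all (3.51%). The 95% interval of a difference reached 0.32 to either side on the log2(signal + 25) scale in the median gene, a factor of 1.25, and 0.64, a factor of 1.56, at the 90th percentile. Only 45 genes differed by 1 or more on that scale, 24 higher and 21 lower. Replicates are separate animals, and in whole liver fewer cells of a type and less RNA per cell cannot be told apart.

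**Figure D1:**
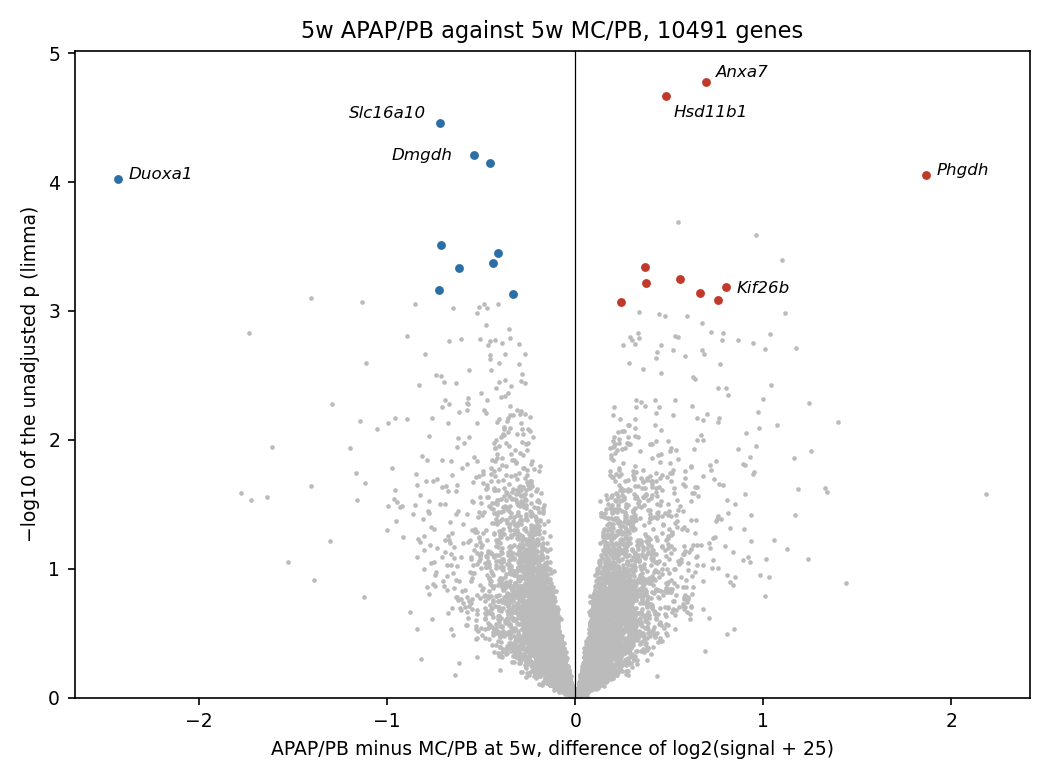
Difference between 5w APAP/PB and 5w MC/PB (x axis, log2(signal + 25)) against −log10 of the unadjusted limma p (y axis) for 10491 genes, 1 grey point a gene. The 10 genes of smallest p without overlap between the groups in each direction are red where higher and blue where lower; among them Duoxa1 (−2.43) and Phgdh (1.86) lie farthest out, and 0 genes passed the adjusted threshold.

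The genes of smallest p without overlap between the groups were, among those higher with APAP, Anxa7, Hsd11b1, Phgdh, Mdp1, Dhrs11, Asf1a, Kif26b, Snx33, Phka1 and Ap2m1. Those lower were Slc16a10, Dmgdh, Fbxo25, Duoxa1, Senp7, Chmp3, Myorg, Dnajb5, Prodh2 and Zcchc24. None of these 20 passed, with adjusted p from 0.113 to 0.292 (limma), and they were picked for this contrast, so their differences are a description.

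Anxa7 encodes annexin A7, a calcium-dependent phospholipid-binding protein. Its signals were 675, 802, 757 and 827 with APAP and 521, 476, 394 and 466 in MC/PB. All 4 APAP livers were above all 4 controls, while the MC/water livers were lower still, at 226 to 295. The mean log2(signal + 25) was 9.62 ± 0.12 against 8.93 ± 0.16 (SD, n = 4 each), a difference of 0.69 (SE 0.14, adjusted p = 0.113, limma). It was 0.63 within set 1 and 0.76 within set 2. A second probe set of Anxa7 gave 0.29 (SE 0.25).

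Hsd11b1, the enzyme that regenerates active glucocorticoid in liver, had signals of 21950, 26250, 21910 and 25040 with APAP and 16590, 14850, 17870 and 18940 in MC/PB. The lowest APAP liver was above the highest control, and the MC/water livers, at 15420 to 21450, overlapped the controls and lay below every APAP liver. The difference was 0.48 (SE 0.10, adjusted p = 0.113, limma), with 0.35 within set 1 and 0.61 within set 2. With the array set as a block in the fit, Anxa7 and Hsd11b1 both passed, each at an adjusted p of 0.0302 (limma). In that fit 0 other genes passed (2 of 10491, 0.0191%). The sets were read from the residuals of these same arrays, so the block removes spread by construction. That pass is therefore no support for either gene.

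Phgdh, the first enzyme of serine synthesis, had signals of 210, 591, 145 and 223 with APAP and 63.7, 124, 40.5 and 15.1 in MC/PB. Each APAP liver was above each control, but 3 of the 4 controls were under the signal minimum of 100 used as the filter. The difference was 1.86 (95% interval 1.02 to 2.70, adjusted p = 0.142, limma), but 1.10 (SE 0.27, adjusted p = 0.277) with signals under 100 set to 100.

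Dmgdh, the mitochondrial dimethylglycine dehydrogenase of choline breakdown, had signals of 6987, 6154, 5230 and 5956 with APAP against 8204, 7914, 9837 and 9310, a difference of −0.54 (SE 0.11). Prodh2, which degrades hydroxyproline, had 2995, 3386, 2366 and 2741 against 4168, 5722, 4592 and 4557, a difference of −0.73 (SE 0.19). Slc16a10, the aromatic amino acid transporter TAT1, had 262, 238, 215 and 256 against 428, 354, 502 and 386, a difference of −0.72 (SE 0.15). In these 3 genes every APAP liver was below every control, and the MC/water livers had 6679 to 8674 for Dmgdh, 3753 to 4689 for Prodh2 and 374 to 498 for Slc16a10.

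Duoxa1, the maturation factor of the hydrogen peroxide-producing oxidase DUOX1, had the largest difference among the 20. Its signals were 171, 159, 13.3 and 5.04 with APAP and 453, 322, 679 and 275 in MC/PB. Replicates 3 and 4 of the APAP group were far below replicates 1 and 2, and the difference was −2.43 (SE 0.54, adjusted p = 0.142, limma). A signal under 100 gives only a bound, and with such signals set to 100 the difference was −1.49 (SE 0.29, adjusted p = 0.0957). The MC/water livers, at 87.9 to 118, were also below the controls on phenobarbital.

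The other genes had smaller differences. Mdp1 (0.37), Dhrs11 (0.55), Asf1a (0.38), a histone chaperone, and Ap2m1 (0.24), a clathrin adaptor subunit, were among those higher, as were Kif26b (0.80) and Snx33 (0.67). For Phka1, a phosphorylase kinase subunit, all 4 controls were under 100 and APAP livers had 89.2 to 164, at least 1.27-fold higher. Its difference was 0.76 (adjusted p = 0.292, limma), or 0.29 (adjusted p = 0.607, limma) with signals under 100 set to 100. On the lower side were Fbxo25 (−0.45), Senp7 (−0.72), a SUMO protease, Chmp3 (−0.41), Myorg (−0.44), Dnajb5 (−0.62) and Zcchc24 (−0.33). Other probe sets of the same gene went the other way in Kif26b (−0.38 in 1 of its other probe sets), Dnajb5 (0.08), Mdp1 (−0.01) and Zcchc24 (0.32 in 1 of them).

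**Figure D2:**
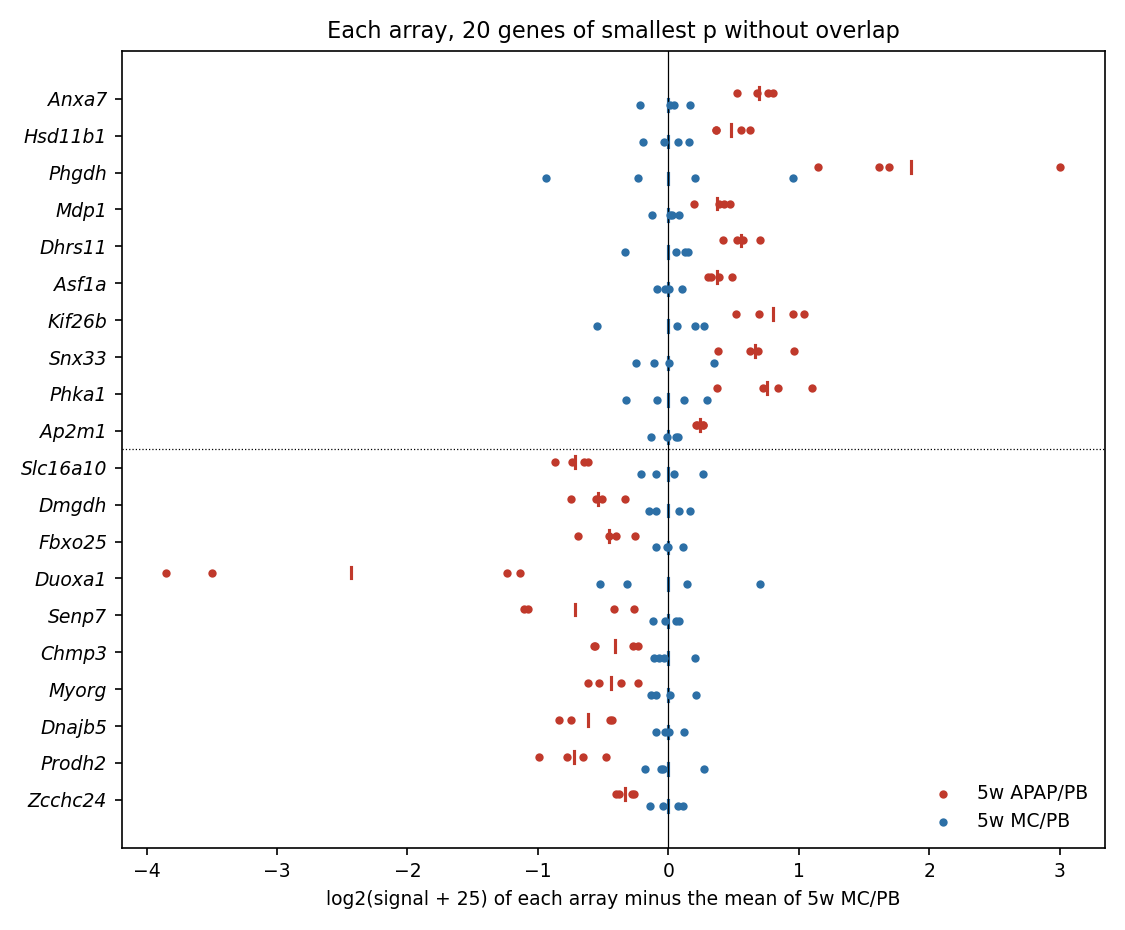
Each array's log2(signal + 25) minus the mean of 5w MC/PB (x axis) for the 20 genes of smallest p without overlap (y axis), red for 5w APAP/PB and blue for 5w MC/PB, with a bar at each group mean. Most genes lie within 1 of the control mean, while Duoxa1 replicates split in the APAP group and Phgdh has 1 APAP array far to the right.

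Across all 18761 probe sets tested singly, 1 passed (0.00533%), a probe set with no gene symbol here (1382236_at). Its signals were 1166, 859, 1232 and 891 with APAP and 518, 475, 364 and 525 in MC/PB, with no overlap. The APAP minus MC/PB difference was 1.10 (SE 0.17, adjusted p = 0.00701, limma), or 2.14-fold. At 10w that difference was 0.75 (SE 0.21, adjusted p = 0.260, limma). TAA/PB (895 to 1232) and MP/PB (839 to 1225) livers lay in or near the range of the APAP livers (859 to 1232). All DEN3/PB (560 to 1039) and DEN30/PB (619 to 853) livers were also above the highest MC/PB liver. MC/water livers, at 496 to 787, overlapped the MC/PB livers but were mostly above them. Against the mean of the other 4 initiator groups APAP differed by 0.24 (SE 0.13, adjusted p = 0.940, limma).

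Cyp2e1, the main P450 that activates APAP, had signals of 37730, 35540, 30530 and 29560 with APAP and 30430, 32510, 31950 and 29680 in MC/PB. The groups overlapped, with a difference of 0.09 (95% interval −0.16 to 0.34). Of the bioactivation list, which holds P450 enzymes, their electron donors and the nuclear receptors that regulate them, 0 of 15 measured members passed. At an unadjusted p under 0.05, 2 were higher and 1 lower, and the list's median was 0.11 against −0.00 for all genes. That level was met by 3.59% of all genes upward and 3.59% downward, the shares to set beside each list below. Cyp3a18 (0.40), Cyb5a (0.17), the cytochrome b5 electron donor, and Nr1i3 (0.57), the receptor CAR that mediates the phenobarbital response, were above 0, as were Cyp1a2 (0.15, interval −0.36 to 0.66) and Cyp3a2 (0.07).

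Cyp3a9 stood below the others of its list. Its signals were 9136, 2382, 5745 and 3369 with APAP and 13290, 11140, 11060 and 12820 in MC/PB. Every APAP liver was below every control, and the APAP livers covered the range of MC/water (2737 to 7394). The difference was −1.40 (SE 0.38, adjusted p = 0.292, limma), 0.08 above TAA/PB and 1.32 below DEN30/PB in group means.

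Glucuronidation and sulfation genes had 0 of 16 measured members past the threshold, 2 higher at an unadjusted p under 0.05 and a median of 0.13. These were the glucuronosyltransferases Ugt2a1 (0.67) and Ugt2b15 (0.29), while Ugt2b1 differed by 0.26, Papss2, which makes the sulfate donor, by −0.20 and the sulfotransferase Sult1a1 by −0.04. Of glutathione genes 0 of 38 passed, 2 were higher at an unadjusted p under 0.05, and the median was 0.05. Gstm2 had signals of 26400, 23560, 20660 and 22540 with APAP against 20430, 20290, 16200 and 16720 (difference 0.34, SE 0.09, adjusted p = 0.292, limma), without overlap. Gstm1 differed by 0.21. Gclc, the catalytic subunit of the rate-limiting enzyme of glutathione synthesis, differed by 0.06, its modifier subunit Gclm by 0.28, glutathione reductase Gsr by 0.24, Glrx2 by 0.18 and Chac1, which degrades glutathione, by −0.47.

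NRF2 induces detoxifying enzymes through antioxidant response elements. Of 25 measured targets 0 passed, 6 were higher and 0 lower at an unadjusted p under 0.05, and 21 had differences above 0. Among all genes 3.59% were higher and 3.59% lower at that level, and the median difference was −0.00. The list's median was 0.24, and its mean level was 11.56 ± 0.04 with APAP and 11.37 ± 0.13 in MC/PB (SD, n = 4 each). The aflatoxin aldehyde reductase Akr7a3 had signals of 9946, 15230, 11580 and 13690 against 8783, 8960, 5889 and 6944, all APAP livers above all controls (difference 0.72, SE 0.21, adjusted p = 0.292, limma). The carbonyl reductase Cbr1 (0.43) and the epoxide hydrolase Ephx1 (0.28) also did not overlap, and malic enzyme Me1 (0.67) did. Many of these genes also respond to phenobarbital, which both groups received: the Ephx1 signals were 41430 to 46240 with APAP, 34530 to 38980 in MC/PB and 18080 to 29580 in MC/water.

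The other NRF2 targets at an unadjusted p under 0.05, Mafg (0.37) and Tkt (0.44), overlapped between the groups and were named after their values were seen. Nqo1, the classical target, had signals of 3953, 6535, 7013 and 7253 with APAP against 6694, 6077, 5822 and 5020, a difference of 0.04 (interval −0.37 to 0.44). The heme oxygenase Hmox1 differed by −0.08 (interval −0.58 to 0.41), Aldh1a1 by 0.31 and Abcc3 by 0.26. At 10w the list's median was 0.02, with 0.02 for both Akr7a3 and Me1.

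The core of the antioxidant response element is TGACNNNGC. It was searched on both strands of the 250 bases before the annotated start, in RefSeq promoters of the GRCr8 assembly. It occurred in 3 of 21 promoters matched for NRF2 targets (14.3%), Gclm, Gstp1 and Me1, in 4 of 26 for proteasome subunits (15.4%), Psma3, Psmb2, Psmb5 and Psmd1 (Psma3 and Psmb5 being named for this match alone), and in 10.2% of all 27457 promoters. Shown are a glutathione synthesis gene, a tumour marker of the rat liver and the proteasome gene of smallest p, with the match in capitals; a match is a description and not a bound site. They are chr2:213031885-213032134 (plus strand), chr1:210769706-210769955 (minus strand) and chr5:144254808-144255057 (plus strand).
Gclm: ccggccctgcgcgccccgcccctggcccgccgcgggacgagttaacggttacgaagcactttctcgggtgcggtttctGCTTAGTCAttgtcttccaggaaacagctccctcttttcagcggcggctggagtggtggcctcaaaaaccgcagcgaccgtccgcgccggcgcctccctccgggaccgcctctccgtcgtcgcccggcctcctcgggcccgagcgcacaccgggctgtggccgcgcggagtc
Gstp1: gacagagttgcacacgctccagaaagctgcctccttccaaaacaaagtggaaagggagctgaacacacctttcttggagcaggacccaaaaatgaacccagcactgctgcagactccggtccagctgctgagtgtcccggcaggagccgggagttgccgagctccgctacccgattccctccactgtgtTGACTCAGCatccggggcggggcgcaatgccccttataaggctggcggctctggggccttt
Psmb2: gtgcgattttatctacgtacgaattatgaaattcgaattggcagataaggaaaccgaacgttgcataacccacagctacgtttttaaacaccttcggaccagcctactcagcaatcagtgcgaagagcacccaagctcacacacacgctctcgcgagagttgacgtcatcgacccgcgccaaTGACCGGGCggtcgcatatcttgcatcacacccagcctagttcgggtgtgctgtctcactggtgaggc
Beside these sequences, the APAP minus MC/PB differences were 0.28 for Gclm, −0.00 for Gstp1 and 0.25 for Psmb2.

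Proteasome subunits form the barrel and caps that degrade ubiquitinated proteins. Of 30 measured, 0 passed, and 9 were higher and 0 lower at an unadjusted p under 0.05. In 27 the difference was above 0, and the list's median was 0.13. Over all genes the shares were 3.59% higher and 3.59% lower, with a median of −0.00. The barrel subunit Psmb2 had signals of 7863, 7083, 7799 and 7572 with APAP and 6111, 6456, 6422 and 6397 in MC/PB. Its spread was narrow, without overlap (difference 0.25, SE 0.07, adjusted p = 0.292, limma). Psmb7 (0.20), Psma2 (0.19) and Psmd1 (0.25) did not overlap either. The list's median was 0.20 within set 1, 0.08 within set 2 and 0.09 at 10w.

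The list of acute stress genes, many of which rise within hours of injury, also holds metallothioneins and antioxidant enzymes such as catalase. Differences were negative in 16 of its 24 measured members. Of these 24, 0 passed, and 2 were higher and 5 lower at an unadjusted p under 0.05, against 3.59% of all genes in each direction. The list's median was −0.27, with −0.31 within set 1, −0.25 within set 2 and 0.04 at 10w, against −0.00 for all genes at 5w. Set against the mean of the other 4 initiator groups at 5w, APAP had a list median of only −0.07. Dusp6, a phosphatase of the ERK pathway, had signals of 1930, 1080, 1222 and 1669 with APAP against 2641, 1996, 3419 and 2519 (difference −0.84, SE 0.35, adjusted p = 0.617, limma), without overlap. Gadd45a, a stress and growth arrest gene, had 736, 668, 696 and 1361 against 1629, 1218, 1146 and 1879, replicate 4 standing high among the APAP livers (difference −0.78, SE 0.34). Sesn2 differed by −0.35 and the AP-1 subunit Jund by 0.53. Gadd45b, which phenobarbital induces, differed by 0.64 and the cell cycle inhibitor Cdkn1a by −0.11, both overlapping the controls. From the same MC/PB arrays, Gadd45a also differed by −0.51 in DEN3/PB, −0.79 in DEN30/PB, −0.56 in TAA/PB and −1.01 in MP/PB. Dusp6 gave −0.21, −0.44, −0.54 and −0.93 in the same order.

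Serine synthesis and asparagine synthetase genes, which ATF4 activates when amino acids are short, were the 3 higher members of the stress list for the endoplasmic reticulum and amino acids at an unadjusted p under 0.05. Of 30 measured 0 passed, 0 were lower at that level, 17 had negative differences, and the median was −0.02. Chac1, also on this list, went the other way by −0.47 (SE 0.23), with every APAP liver below every control. Beside Phgdh, Psat1, the second enzyme of serine synthesis, had signals of 447, 1324, 463 and 559 with APAP against 216, 418, 259 and 483 (difference 0.89, SE 0.35), with overlap. Asns, asparagine synthetase, had 238, 734, 229 and 290 against 190, 185, 172 and 219 (difference 0.72, SE 0.28), without overlap. Replicate 2 was the highest APAP liver in all 3 genes, and without it the differences were 1.48 for Phgdh, 0.54 for Psat1 and 0.35 for Asns.

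In heat shock chaperones 0 of 20 passed, 0 were higher and 3 lower at an unadjusted p under 0.05, and the median was −0.07. They were Dnaja4 (−0.42), Stip1 (−0.35) and Hspa1a, and Hspa4l differed by −0.34. Without MC/PB replicate 4 the Dnaja4 difference was −0.19, and without APAP replicate 3 that of Hspa4l was −0.16. A second, dimmer probe set of Dnaja4 gave 0.04 (SE 0.27). The Hspa1a difference of −1.40 rested on 1 control: the MC/PB signals were 140, 116, 242 and 4325, and without replicate 4 it was −0.26.

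Cell cycle genes were mostly slightly above the controls. Of 42 measured 0 passed, 7 were higher and 0 lower at an unadjusted p under 0.05, and 38 had differences above 0. The shares of all genes at that level were 3.59% higher and 3.59% lower, with a median of −0.00. The list's median was 0.24, but 0.06 within set 1 and 0.44 within set 2, and 0.16 at 10w. Tk1, a thymidine kinase of S phase, had signals of 672, 600, 660 and 679 with APAP against 534, 448, 400 and 406 (difference 0.53, SE 0.15, adjusted p = 0.292, limma). Mki67, which marks dividing cells, had 180, 300, 152 and 199 against 118, 127, 136 and 83.1 (difference 0.70, SE 0.24). Both were without overlap, as was Ube2c (0.51), and Ccnd1 (0.62) overlapped. A second probe set of Tk1 gave 0.17 (SE 0.17).

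Phenobarbital-inducible genes had a median of 0.18, against −0.00 for all genes, with 19 of 24 measured members above 0 and 0 past the threshold. At an unadjusted p under 0.05, 4 of them were higher and 1 lower, against 3.59% of all genes in each direction. The one lower was Cyp3a9, and the others named by their p were Gstm1, Ephx1 and Cyp2c22 (0.21). In bile acid genes 0 of 27 passed, with a median of 0.04. Cyp7a1, the rate-limiting enzyme of bile acid synthesis, had signals of 1175, 2904, 5488 and 2247 with APAP against 1456, 1020, 942 and 717, with overlap (difference 1.33, SE 0.56, adjusted p = 0.617, limma). Fgfr4, the receptor through which FGF15 represses Cyp7a1, differed by −0.33, the anion transporter Slc22a8 by 0.80 (0.39 without MC/PB replicate 4) and the bile acid importer Slc10a1 by 0.16.

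Differences of sex-biased and growth hormone-dependent genes ran from −1.78 to 2.19. Of 29 measured 0 passed, and 5 were higher and 3 lower at an unadjusted p under 0.05 (median 0.05). Prlr, the prolactin receptor, had signals of 249, 125, 87.5 and 331 with APAP against 238, 516, 997 and 1362, with overlap in a wide control range (difference −1.73, SE 0.49, adjusted p = 0.292, limma). Its other 2 probe sets gave −1.85 and −1.64. Ust5r, an organic anion transporter gene, differed by 0.55 and Cyp2c11, the main male-specific P450, by 0.19.

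**Figure D3:**
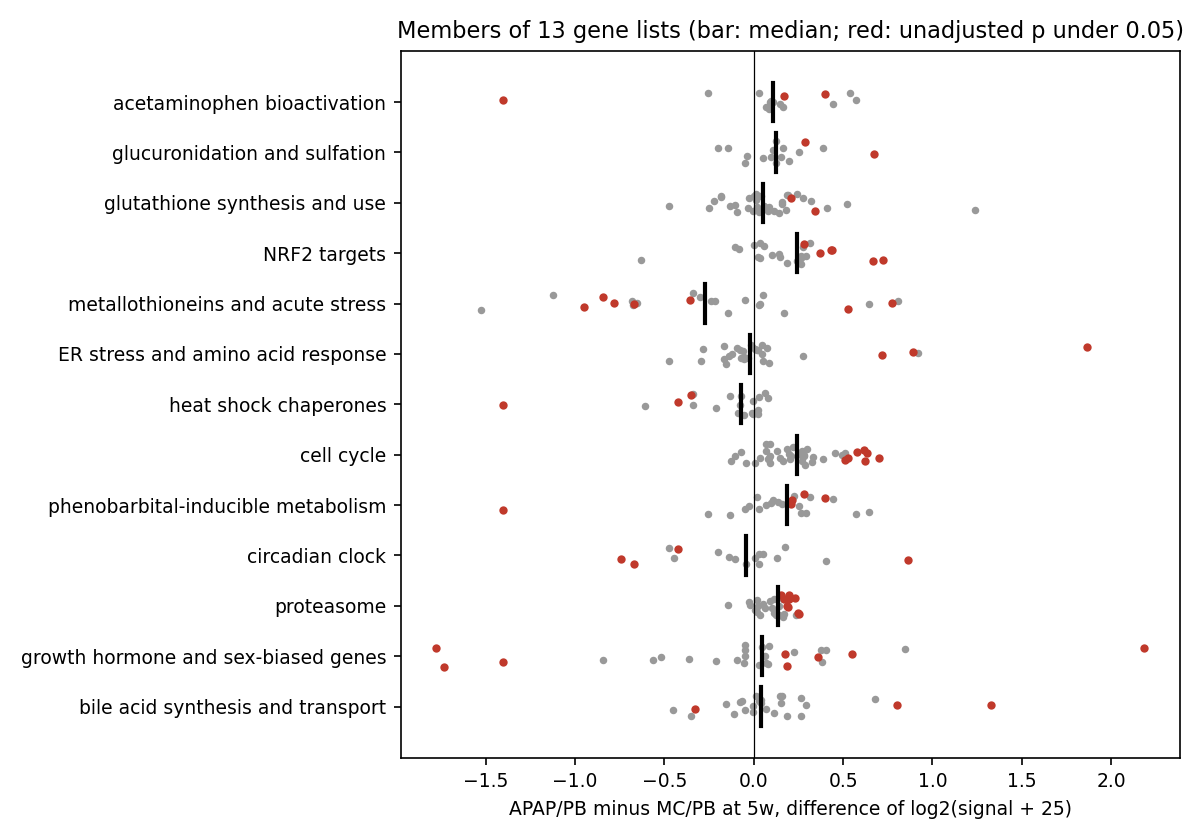
APAP/PB minus MC/PB difference at 5w on the log2(signal + 25) scale (x axis) of each measured member of 13 gene lists (y axis), with a black bar at the list's median and red points at an unadjusted p under 0.05. Medians run from −0.27 for acute stress to 0.24 for NRF2 targets and cell cycle genes, and no member passed the adjusted threshold.

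Of the list of preneoplastic focus markers, 0 of 18 measured passed, 2 were higher and 0 lower at an unadjusted p under 0.05, and the median was 0.08. Those higher, without overlap, were Akr7a3, also an NRF2 target, and the carbonic anhydrase Car2 (0.68), named after its values were seen. The groups overlapped in Gstp1, Ggt1, Afp and Lox. Gstp1, the placental glutathione transferase that marks preneoplastic foci in rat liver, had signals of 1075, 678, 1106 and 706 with APAP and 1121, 854, 907 and 658 in MC/PB (difference −0.00, interval −0.61 to 0.61). Ggt1 differed by 0.41 (interval −0.23 to 1.05), the fetal protein Afp by −0.12 (interval −0.42 to 0.17) and the collagen crosslinking enzyme Lox by 0.58 (interval −0.07 to 1.22). Lox was far higher in MC/water, at 1669 to 5148 against 134 to 195 with APAP. Of the fixed set of 20 genes to which these belong, 18 were measured and 0 passed; Ugt1a6 and Mt1a had no probe set under these symbols.

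For markers of other cells, the list medians lay between −0.21 for pancreas, gut and adipose carry-over and 0.33 for erythroid and platelet genes, and no member passed. Cd163 of Kupffer cells (283 to 328 with APAP, 347 to 462 in MC/PB) lay wholly lower, as did 1.84% of all genes, while Clec4f overlapped. Cd3e of T cells was also wholly lower (22.5 to 64.3 against 66.8 to 108), with all APAP signals under 100. The medians of these 2 lists were −0.02 and 0.07. The erythroid gene Hbb had signals of 17540 to 33750 with APAP and 6047 to 27280 in MC/PB, and the summed erythroid and platelet signal was 19040 to 35840 against 7201 to 29240. The part of these cells in any difference above was not tested.

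APAP was next set against the other initiators, in a contrast of group means in which MC/PB is no term; its arrays enter only the estimate of the spread, which all 5w groups share. Against the mean of the other 4 initiator groups at 5w, 1 of 10491 genes passed (0.00953%), and 620 had an unadjusted p under 0.05 (5.91%). The gene was Usp2, a deubiquitinase whose transcript cycles with the liver clock. Its signals were 95.01, 48.2, 67.9 and 50.9 with APAP, all under 100. The lowest of the 19 livers given other initiators was 107 and the highest 265, so no APAP liver reached them. The difference was −1.05 (SE 0.18, adjusted p = 0.0233, limma), and since the APAP arrays were under the minimum, the other groups were at least 1.58-fold higher. Against MC/PB (147, 67.6, 134 and 166) the groups overlapped, with −0.74 (SE 0.23, adjusted p = 0.365).

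The Usp2 call depended on the arrays used and on signals under 100. With those set to 100 the difference was −0.56 (adjusted p = 0.184) and 0 genes passed. It was also lost without APAP replicate 2 (−0.96, adjusted p = 0.253) or replicate 4 (−0.98, adjusted p = 0.100), within set 1 (−0.96, adjusted p = 0.528) and within set 2 (−1.18, adjusted p = 0.226). Without replicate 3 there were 7 calls and without replicate 1 there were 3, Usp2 among both.

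Of other clock genes, Cry1, a repressor in the core loop, had signals of 472, 401, 385 and 457 with APAP against 633, 575, 745 and 859, without overlap (difference −0.67, SE 0.19, adjusted p = 0.292, limma). Nr1d1, which encodes the repressor REV-ERB alpha, had 322, 414, 562 and 330 against 186, 419, 116 and 194, with overlap (difference 0.86, SE 0.32), and Nfil3 differed by −0.42. In all, 0 of 17 clock genes passed against MC/PB, 1 was higher and 3 lower at an unadjusted p under 0.05, and the median was −0.04.

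**Figure D4:**
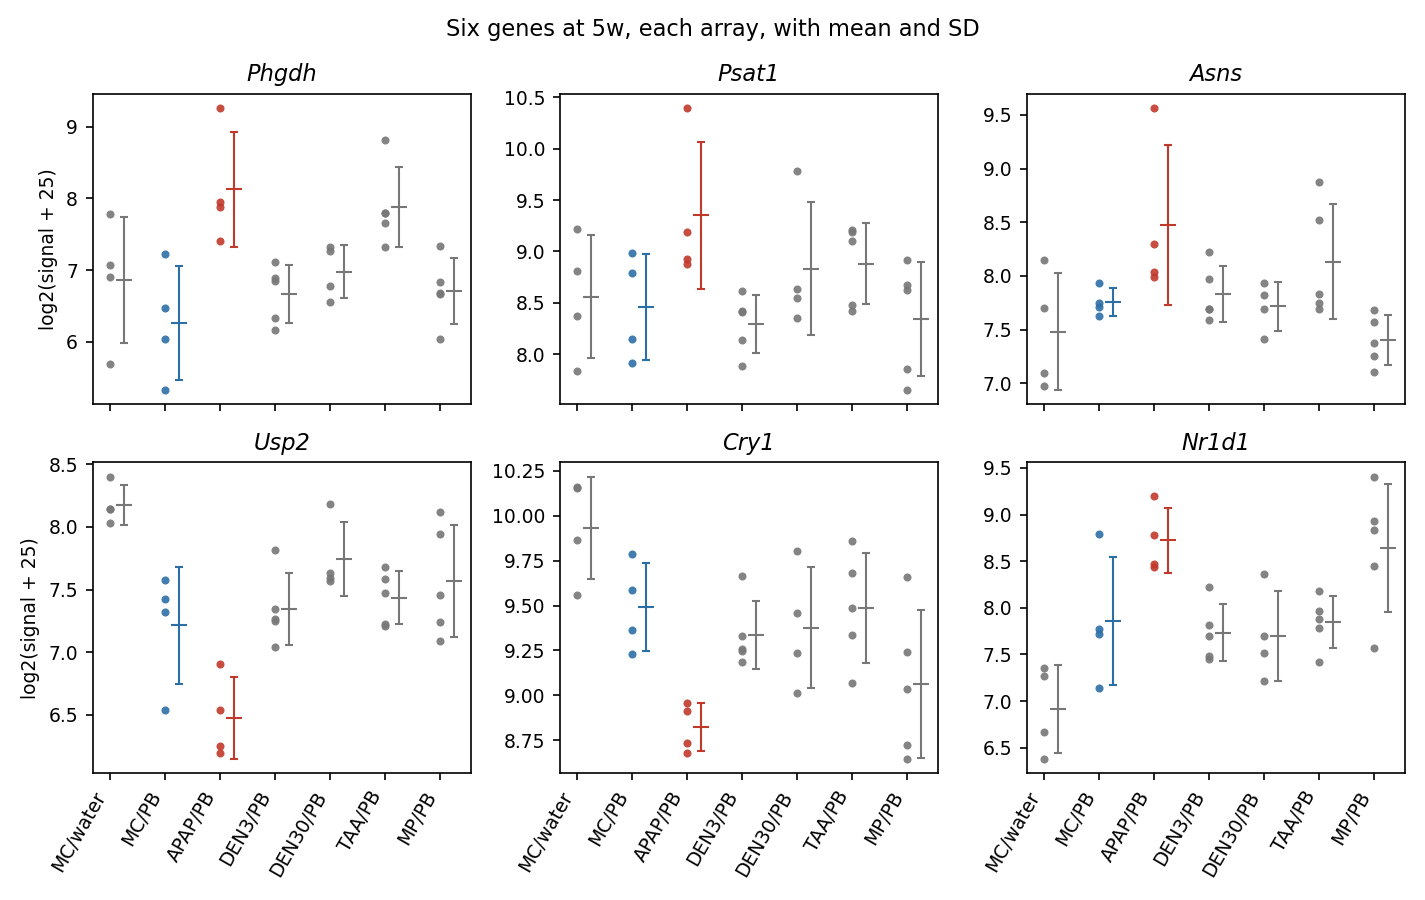
Log2(signal + 25) of each array at 5w (y axis) for Phgdh, Psat1, Asns, Usp2, Cry1 and Nr1d1 in 7 treatment groups (x axis), with mean and SD at the side of each group; red is APAP/PB and blue MC/PB. The 4 APAP arrays lie under all other arrays for Usp2, except that 1 MC/PB array falls among them, and TAA/PB reaches the APAP range for Phgdh.

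Set side by side, with the same MC/PB arrays as control for each, the differences from MC/PB were 0.69 for APAP in Anxa7, 0.49 for TAA, 0.31 for MP, 0.21 for DEN3 and 0.14 for DEN30. For Hsd11b1 they were 0.48, 0.50, 0.47, 0.31 and −0.10 in the same order. Phgdh gave 1.86, 1.61, 0.45, 0.41 and 0.72, and with signals under 100 set to 100 it gave 1.10, 0.85, 0.0095, −0.035 and 0.10. Slc16a10 gave −0.72, −0.70, −0.66, −0.32 and −0.35. Against the mean of the other 4 groups, none of these 4 genes passed, with 0.41 for Anxa7 (adjusted p = 0.189, limma), 0.19 for Hsd11b1, 1.07 for Phgdh and −0.21 for Slc16a10. Gstp1 was 1.58 lower in APAP/PB than in DEN30/PB in group means, and −0.62 (SE 0.23, adjusted p = 0.591) from the mean of the 4. In comparisons with the same controls, 4 genes passed for DEN3 (0.0381%), 12 for DEN30 (0.114%), 2 for TAA (0.0191%) and 6 for MP (0.0572%).

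Finally, the difference was followed to 10w in the same animals. The change of the difference between the weeks was past the threshold in 0 of 10910 genes (0%), with 357 at an unadjusted p under 0.05 (3.27%) and a smallest adjusted p of 0.9997 (limma). That fit had group as its only term, so the SEs of changes from it take no account of the shared animals. With the animal as a random block, 1 gene passed, the kinase gene Map3k1, named after its values were seen: its difference was 0.10 at 5w and 1.04 at 10w, a change of 0.94 (SE 0.18, adjusted p = 0.0288). Of the 20 genes picked at 5w, 15 had a difference of the same sign at 10w, against 61.0% of all genes, and 0 of the 20 passed at 10w. Since both weeks come from the same livers, this is not a repeat in other animals. Duoxa1 had signals of 358, 175, 3.88 and 22.3 at 10w with APAP and 578, 418, 640 and 295 in MC/PB (difference −2.27, SE 0.60, adjusted p = 0.146, or −1.39 with signals under 100 set to 100), the same 2 animals lying low as at 5w. Anxa7 (0.65), Mdp1 (0.49), Prodh2 (−0.73) and Cyp3a9 (−1.06) also kept a difference of similar size. Differences smaller in size than at 5w were seen in Hsd11b1 (0.18), Slc16a10 (−0.21), Dmgdh (−0.25), Dhrs11 (0.35), Kif26b (0.50), Snx33 (0.34), Ap2m1 (0.16), Myorg (−0.28) and Zcchc24 (−0.14). Fbxo25 (−0.00), Senp7 (0.10), Chmp3 (0.01), Dnajb5 (0.02), Asf1a (0.04) and Phka1 (−0.07) were near 0.

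Differences of serine synthesis and acute stress genes changed in size or direction between the weeks, without passing. Phgdh had 162, 205, 472 and 234 at 10w with APAP against 281, 273, 220 and 226, a difference of −0.00, and the change from 5w was −1.87 (SE 0.61, adjusted p = 0.9997, limma), or −1.10 (SE 0.45) with signals under 100 set to 100. Psat1 gave −0.05 and Asns −0.37 at 10w. Gadd45a and Dusp6, at −0.78 and −0.84 at 5w, gave 0.69 and 0.64.

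At 10w itself 9 of 10910 genes passed between APAP/PB and MC/PB (0.0825%), 3 higher (0.0275%) and 6 lower (0.055%). Nr1d1 was among them, with signals of 556, 857, 497 and 689 against 151, 95.5, 101 and 166, without overlap; it rose by 2.14 (SE 0.36, adjusted p = 0.00101, limma), 1.27 (SE 0.51, adjusted p = 0.9997) more than at 5w. Sesn2, a stress-induced regulator of mTORC1, fell by 0.83 (SE 0.14, adjusted p = 0.00128), against −0.35 at 5w. Cry1 differed by −0.89 (adjusted p = 0.109) and Usp2 by −0.13.

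**Figure D5:**
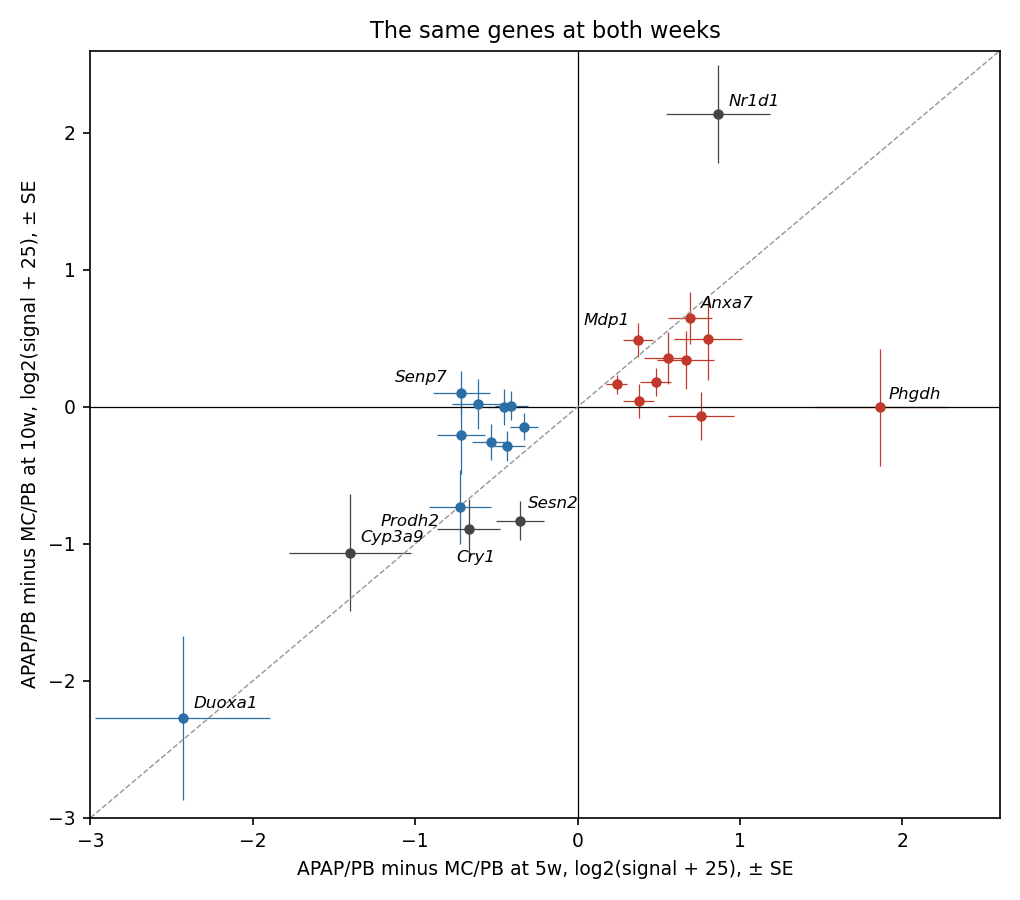
APAP/PB minus MC/PB difference at 10w (y axis) against that at 5w (x axis), both on the log2(signal + 25) scale with SE bars, for the 20 genes of smallest p at 5w (red higher, blue lower) and for Cyp3a9, Cry1, Nr1d1 and Sesn2 (dark); the dashed line marks equal differences. Duoxa1 and Anxa7 lie near that line, Phgdh is at −0.00 at 10w, and Nr1d1 is above it.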

How the data were processed

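Liver RNA was hybridised to Affymetrix rat arrays. The values are linear signal intensities that the authors computed with MAS5 5.0, per the submitters' processing notes, and deposited for 31099 probe sets. The 2% trimmed mean was 500.23 to 500.27 on every array, so no further scaling was done. Symbols came from the platform table (20826 probe sets with 1 symbol, 436 with several, 9780 with none, 57 controls); those with 1 symbol were used. An offset of 25 was added before log2, which shrinks the differences of dim genes. Probe sets were kept if the signal reached 100 on at least 4 arrays of the fit, and the brightest probe set stood for a gene. Linear models with moderated variances (limma 3.58.1 under R 4.3.3, eBayes with an intensity trend) gave two-sided p-values, with Benjamini-Hochberg adjustment at 0.05, on the 31 arrays at 5w (10491 genes) or on all 62 (10910 genes; 10w effects and the change between weeks). The steps were tested on simulated data.

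Genes named are those past the threshold without overlap, filled up to 10 in each direction by the smallest unadjusted p without overlap; up to 4 members of smallest p of each list described; a fixed set of 20; and the 5 largest of the other 2 contrasts. Cell markers are named as checks, and the text marks any other gene that the rule does not name. The samples, gene lists and rule were chosen with earlier results of these data known. Alternatives were other offsets, a floor, filters, scaling, probe sets, blocks, array sets, samples and moderation, and leaving out each array. The number of arrays limits the precision. Same-numbered 5w animals of both groups had residual correlations of 0.03 to 0.16 and were not treated as pairs. The same animal at both weeks had 0.21 to 0.39.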

Additional observations from a re-analysis of the deposited data

Results flagged for a closer look

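In 6 of 166 gene and group combinations checked, 1 of the 4 livers stood apart from the other three by Dixon's criterion at 95%, which chance alone meets in about 1 in 20 groups. In the APAP group Gadd45a was high in replicate 4 (log2(signal + 25) of 10.44, against 9.44 to 9.57 in the others), Cyb5a was low in replicate 3 (15.04, against 15.26 to 15.28) and Ugt2b1 was high in replicate 2 (14.98, against 14.86 to 14.87). In MC/PB Cdkn1a was high in replicate 4 (10.28, against 9.15 to 9.23), Cyp2c11 was high in replicate 2 (15.42, against 15.31 to 15.33) and Psmb2 was low in replicate 1 (12.58, against 12.65 to 12.66). Without that replicate 4, the Cdkn1a difference was 0.16 in place of −0.11. What sets these livers apart was not tested.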

How the results depend on the processing

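The count of 0 genes for 5w APAP/PB against MC/PB stayed at 0 in limma with no offset, an offset of 50, no filter, a signal of at least 200, quantile normalization, only the groups compared, no trend, signals under 100 set to 100, within set 1 and without any 1 of the 8 arrays (642 to 779 genes at an unadjusted p under 0.05). It was 1 with all probe sets, 2 with the array set as a block, 2 with the replicate block (Anxa7 and Hsd11b1, adjusted p = 0.0421 each) and 4 within set 2, where Bco1 (2.15), Mettl7b (1.02), Pilra (−2.45) and Senp7 (−1.06) passed; the first 3 lie outside the rule for naming and were named after their values were seen. The change between weeks had 0 calls in each alternative but the animal as a replicate block (consensus correlation 0.315), which had 1, Map3k1 (0.94, adjusted p = 0.0288), also outside the rule. Against the other initiators the count was 7 with the replicate block, 0 within set 1, 0 with signals under 100 set to 100 and 0 to 7 without 1 array. Without APAP replicate 2 its 1 call was Slc27a4 (−1.09), outside the rule, and within set 2 it was Pilra. Setting signals under 100 to 100 was chosen after seeing the data, and the array sets were read from the residuals of these same arrays. The replicate block takes up the same split, since replicates 1 and 3 fell in set 1 and replicates 2 and 4 in set 2. Of named genes, 25 values changed sign, each close to 0 or overlapping: with quantile normalization Cyp3a2 (−0.038) and Gstp1 (0.010); within set 1 Sult1a1 (0.057), Gclc (−0.075), Nqo1 (−0.24), Hmox1 (0.24), Gstp1 (0.11) and Cdkn1a (0.33); and within set 2 Cyp1a2 (−0.14). Without 1 array the values ran from −0.091 to 0.31 for Cyp1a2, −0.10 to 0.060 for Sult1a1, −0.053 to 0.15 for Gclc, −0.053 to 0.24 for Nqo1, −0.13 to 0.12 for Gstp1, −0.21 to 0.034 for Afp, −0.030 to 0.44 for Abcc3, −0.25 to 0.16 for Hmox1 and −0.21 to 0.16 for Cdkn1a. Of 83 named genes, 9 changed sign and 19 others moved by over 1.5 times without some 1 array. Another 1723 values kept their direction and side of the threshold, and 6 could not be computed because the gene fell under the filter. The cause of these shifts was not tested. In genes under a signal of 100 the arrays give only a bound.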
